A study of Mus musculus with 16 samples.

Results

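The genes described here are *Casp8*, *Casp9*, *Apaf1*, *Cycs*, *Casp6*, *Xiap*, *Diablo* and *Parp1*, the caspases, apoptosome parts and regulators that stand near the end of the apoptotic pathway. They were chosen by name, and all 8 had a row among the 51912 genes listed in each library. The libraries came from E15.5 mouse cerebral cortex: 7 controls (ctrl), 4 *Knl1* conditional knockouts (cKO) and 4 *Knl1* *Trp53* double knockouts (dKO). *Knl1*, given by its older name *Casc5* in the sample labels, encodes a kinetochore scaffold protein needed for chromosome segregation, and *Trp53* encodes p53. The ctrl mice were 5 *Knl1* wild types and 2 heterozygotes, and whether they carried Cre or an altered *Trp53* allele is not stated in the labels used here. The cKO and dKO mice shared hGFAP-Cre, which acts in neural progenitor cells (NPCs) of the cortex and their progeny. Microglia, blood vessels and most interneurons of the dissected cortex lie outside that lineage and keep both genes. Each mouse was a separate animal, and 1 cKO mouse was sequenced in 2 libraries whose counts were summed.

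In the intrinsic pathway, permeable mitochondria release cytochrome c, encoded by *Cycs*, which binds APAF1 and assembles the apoptosome, a wheel-shaped complex that recruits and activates caspase-9. Caspase-9 in turn cleaves the executioner caspases, whose substrates include PARP1. XIAP binds and blocks caspases, and DIABLO, released from mitochondria along with cytochrome c, relieves that block. Caspase-8 starts the separate, receptor-driven branch. Activation of these proteins is by assembly and cleavage, which RNA-seq does not measure, although *Apaf1* is also a known transcriptional target of p53.

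Sequences that precede the RefSeq starts of the initiator caspase genes and of the apoptosome genes are shown because the question put to the dKO mice is one of transcription with and without p53. Each is the 250 bases before the RefSeq start on GRCm38.p6, written 5′ to 3′ on the strand of the gene. Capitals mark 3 motifs, searched on both strands, which do not overlap in these windows. The first is the GC box, GGGCGG. The second is the CCAAT box, named after its letters. The third is the cAMP response element, TGACGTCA. The window of *Apaf1* lies at chr10:91082744-91082993 on the minus strand, that of *Cycs* at chr6:50566570-50566819 on the minus strand, that of *Casp9* at chr4:141793362-141793611 on the plus strand and that of *Casp8* at chr1:58802252-58802501 on the plus strand.
Apaf1: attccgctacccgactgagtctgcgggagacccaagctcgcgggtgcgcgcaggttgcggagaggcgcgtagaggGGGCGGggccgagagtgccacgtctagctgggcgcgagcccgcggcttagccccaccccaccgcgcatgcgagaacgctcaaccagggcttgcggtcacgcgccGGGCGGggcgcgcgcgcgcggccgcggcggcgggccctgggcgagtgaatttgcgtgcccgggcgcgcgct
Cycs: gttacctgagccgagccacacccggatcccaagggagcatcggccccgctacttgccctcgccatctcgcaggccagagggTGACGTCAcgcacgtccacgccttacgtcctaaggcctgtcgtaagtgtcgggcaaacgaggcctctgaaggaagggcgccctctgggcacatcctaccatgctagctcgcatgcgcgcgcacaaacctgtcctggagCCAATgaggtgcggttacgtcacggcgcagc
Casp9: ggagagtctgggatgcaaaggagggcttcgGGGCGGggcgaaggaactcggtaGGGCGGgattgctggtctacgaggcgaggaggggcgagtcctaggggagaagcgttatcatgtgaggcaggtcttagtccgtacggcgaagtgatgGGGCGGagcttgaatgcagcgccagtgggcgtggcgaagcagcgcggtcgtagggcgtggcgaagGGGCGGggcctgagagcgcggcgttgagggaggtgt
Casp8: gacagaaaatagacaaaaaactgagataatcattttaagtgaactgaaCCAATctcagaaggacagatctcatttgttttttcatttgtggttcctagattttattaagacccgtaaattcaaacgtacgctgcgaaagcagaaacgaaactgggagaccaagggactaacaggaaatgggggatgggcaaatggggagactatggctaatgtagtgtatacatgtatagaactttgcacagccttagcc

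The *Casp8* window lies inside the gene as GENCODE annotates it, which starts further upstream at 58795374, so it is not the flank of the whole counted gene. The last bases of the *Apaf1* window also overlap its gene, which GENCODE starts at 91082770 on the minus strand. The 4 windows differed widely in composition. *Apaf1* had 75.6% G and C and 42 CG dinucleotides, *Casp9* 66.0% and 25, *Cycs* 64.0% and 23, and *Casp8* 39.6% and 5, beside a median of 52.4% G and C over the 32851 RefSeq windows of the same length. The GC box was present 4 times in *Casp9* and 2 times in *Apaf1*, and 32.7% of all windows held at least 1. *Cycs* held 1 CCAAT box, found in 33.9% of all windows, and 1 cAMP response element, found in 1.55%. The single motif of the *Casp8* window was a CCAAT box. All 8 genes had a window in the RefSeq table, 10 windows in all because *Xiap* had 3. The *Xiap* windows start at 42067586 or later, inside the gene as GENCODE annotates it from 42059679, so they too are not its flank. None of the 10 windows contained the p53 half-site, which 7.13% of all windows held. These letters do not show whether a factor binds there, and sequence beyond the windows was not searched.

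Depth differed strongly between the groups. Total counts per mouse were 399832 to 3266227 in ctrl, 4178461 to 8800987 in cKO and 552186 to 5396803 in dKO, so that 3 counts corresponded to between 0.341 and 7.50 CPM, the counts scaled to a common library total. *Knl1* counts, taken over the whole gene rather than over the deleted part, overlapped between ctrl (48.7 to 80.0 CPM) and cKO (median 51.15, highest 80.4 CPM) and were 33.4 to 58.2 CPM in dKO, so they do not check the labels. The same holds for *Trp53*, at 15.6 to 47.0 CPM in ctrl and 19.8 to 32.3 CPM in dKO. Markers of excitatory cortical neurons summed to between 1496 and 2162 CPM in every mouse. *Sox2*, a marker of NPCs, was listed at 0 in all. The 6 markers of apical progenitors, which are NPCs, include *Sox2* and still summed to 228.4 to 528.6 CPM in ctrl. Their sums were 277.1 to 416.7 CPM in cKO and 308.5 to 488.8 CPM in dKO. The 0 of *Sox2* therefore does not show that NPCs were absent, and its cause was not tested. Among the markers, *Eomes* and *Neurog2* of intermediate progenitors and *Emx1* and *Lhx2* of cortical identity fell in cKO (log2 fold changes -1.13, -1.19, -0.84 and -0.69) and *Gad1* of interneurons rose (0.56), each at an FDR below 0.05. The 6 microglial markers summed to 6.52 to 20.0 CPM in ctrl, 10.6 to 20.5 CPM in cKO and 11.1 to 21.6 CPM in dKO. In whole tissue, fewer cells of a type and less RNA per cell cannot be told apart, and the part of such shifts in the values of the 8 genes was not tested.

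None of the 8 genes passed an FDR of 0.05 in edgeR's likelihood ratio test, in cKO against ctrl, dKO against ctrl or cKO against dKO, and the adjusted p was 1 in all 24 tests. The background was low as well. Of all 51912 genes, 0.16% passed in cKO against ctrl (83 genes), 0.0501% in dKO against ctrl (26 genes) and 0.052% in cKO against dKO (27 genes). At an unadjusted p below 0.05 the count was also 0 of 8 in each comparison, beside shares of 4.7%, 3.32% and 4.16% over all genes. Among the 11308 genes that passed edgeR's expression filter these shares were 10.5%, 5.77% and 4.11%. Of the 8 genes, 7 passed that filter, and *Casp8* was too sparse. edgeR's quasi-likelihood test also called 0 of the members. DESeq2 called 0 as well, but in dKO against ctrl it gave an adjusted p for only 2 of the 8. The 3 comparisons share samples and are not independent of each other.

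**Figure D1:**
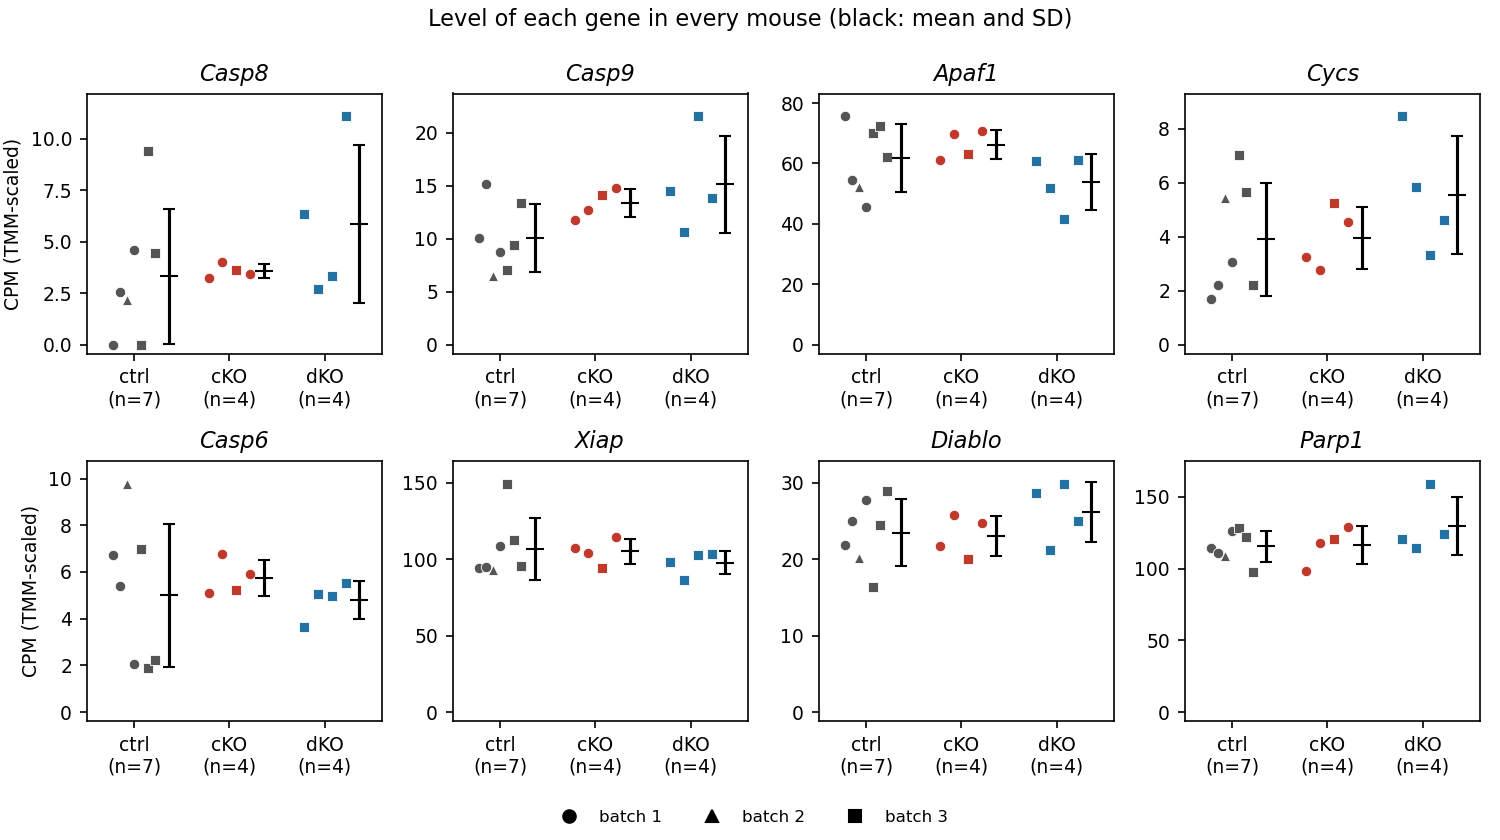
Level of each gene in CPM (vertical axes, linear, scaled by TMM) in 7 ctrl, 4 cKO and 4 dKO mice (horizontal axes), 1 point per mouse, with the marker shape giving the batch and the black bar the mean and SD. The cKO mice lay within the range of the ctrl mice for every gene, except *Parp1* in mouse S2 (129.0 against at most 128.4 CPM in ctrl), and *Casp8* ran from 0 to 9.41 CPM among the ctrl mice.

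Per kilobase of exon, the 8 genes kept a clear order at the top and none at the bottom. Averaged over all 15 mice, *Parp1* stood at 22.6 ± 2.75 CPM per kb (SD), *Xiap* at 11.0 ± 1.57, *Apaf1* at 6.74 ± 1.12, *Diablo* at 3.90 ± 0.623 and *Casp9* at 2.36 ± 0.732. *Casp8* (1.404 ± 1.04), *Cycs* (1.28 ± 0.569) and *Casp6* (0.922 ± 0.377) followed. *Parp1* exceeded *Xiap*, *Xiap* exceeded *Apaf1* and *Diablo* exceeded *Casp9* in 15 of 15 mice, and *Apaf1* exceeded *Diablo* in 14. *Casp8* was above *Cycs* in only 8 of 15 mice, and the last 3 levels did not differ beyond their spread. The lengths are those of all exons. Of the 50-base positions, 37.3% in *Diablo* and 26.2% in *Cycs* also lie in other genes. These 2 levels may thus be underestimated, and the ranks of these genes, with the step from *Apaf1* to *Diablo*, carry that limit.

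Of the initiator caspases, *Casp8* (chr1:58795374-58847503, GRCm38, plus strand) was detected at very low counts. It read 3.25, 4.00, 3.41 and 3.64 CPM in the cKO mice 5, 7, S2 and F3. In ctrl it ranged from 0 to 9.41 CPM with a median of 2.53, on 0 to 10 counts per mouse and with 2 mice at 0. In dKO it was 3.32, 11.1, 6.34 and 2.72 CPM in the mice T2, T8, F1 and F7. All cKO mice thus fell inside the ctrl range, and 1 dKO mouse, T8, lay above it. Its log2 fold change was -0.0040 ± 0.373 (SE) in cKO against ctrl, with a 95% interval from -0.74 to 0.73. In dKO against ctrl it was 0.67 ± 0.532, with an interval from -0.37 to 1.71, which reaches up to a rise of 3.27-fold. Within batch 3 alone the dKO value was 0.0035, while without ctrl mouse T4, which held the highest ctrl level, it was 1.09 (FDR 1). Between cKO and dKO the value was -0.59 ± 0.394, and it was -0.97 without dKO mouse F7 (FDR 0.908).

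*Casp9* (chr4:141793612-141815976, plus strand), the caspase that the apoptosome activates, was higher on average in both mutant groups, without passing the test. The cKO mice 5, 7, S2 and F3 read 11.8, 12.8, 14.8 and 14.1 CPM. The ctrl mice ranged from 6.52 to 15.2 CPM with a median of 9.41. The dKO mice T2, T8, F1 and F7 read 21.6, 13.9, 14.5 and 10.7 CPM. All 4 cKO values lay above the ctrl median and below the highest ctrl mouse, number 6, and of the dKO mice T2 alone lay above that mouse. Counts were low here too, at 3 to 48 in each ctrl mouse and 13 in dKO mouse T2. The log2 fold change was 0.36 ± 0.24 in cKO against ctrl (interval from -0.11 to 0.83) and 0.44 ± 0.298 in dKO against ctrl (interval from -0.14 to 1.03). These values moved with the mice and the covariates in the fit. Without ctrl mouse 6 they were 0.62 (FDR 0.573) and 0.67 (FDR 1), and within batch 1 the cKO value was 0.15. In dKO against ctrl the value was 0.79 with litter in the fit and 0.31 without dKO mouse T2, and the FDR was 1 in both. Between cKO and dKO the fitted log2 fold change was 0.00 ± 0.227, with an interval from -0.44 to 0.44, so a difference of more than 1.36-fold lay outside it.

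*Apaf1* (chr10:90989311-91082770, minus strand), the scaffold of the apoptosome and the member with the GC-rich window printed above, came closest to separating cKO from dKO. It read 61.15, 69.8, 70.9 and 63.0 CPM in the cKO mice 5, 7, S2 and F3 and 41.4, 61.0, 60.7 and 52.0 CPM in the dKO mice T2, T8, F1 and F7. In ctrl it ranged from 45.6 to 75.6 CPM with a median of 62.2. The ctrl range enclosed every cKO mouse and all dKO mice but T2. The log2 fold change was 0.29 ± 0.151 in cKO against dKO, or 1.22-fold with an interval from 0.992 to 1.497 (FDR 1). It was 0.15 ± 0.144 in cKO against ctrl and -0.11 ± 0.17 in dKO against ctrl.

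The lowest cKO mouse (61.15 CPM) stood just above the highest dKO mouse (60.98 CPM), so that for *Apaf1* alone among the 8 genes these groups did not overlap. Groups that did not overlap made up 3.86% of the 11308 genes in cKO against dKO, 1.26% in cKO against ctrl and 0.672% in dKO against ctrl, and no member was among them in the comparisons with ctrl. The gap of 0.161 CPM depended on the scaling. With plain CPM the order turned, with cKO mouse F3 at 55.9 and dKO mouse T8 at 64.5, and with RLE scaling mouse 5 was at 58.9 and T8 at 62.4. Litter also moved the values. With litter in the fit, cKO exceeded ctrl by 0.29 (FDR 1), dKO differed from ctrl by -0.37 and cKO from dKO by 0.18.

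*Cycs* (chr6:50562563-50566538, minus strand) encodes the cytochrome c that triggers apoptosome assembly and otherwise carries electrons in respiration. Its counts were low, at 1 to 10 in each ctrl mouse. The level was 3.25, 2.75, 4.55 and 5.23 CPM in the cKO mice 5, 7, S2 and F3, and 3.32, 4.62, 8.45 and 5.82 CPM in the dKO mice T2, T8, F1 and F7. The ctrl mice ran from 1.68 to 7.00 CPM with a median of 3.07. Only dKO mouse F1 lay outside the ctrl range. The fitted log2 fold change was 0.10 ± 0.365 in cKO against ctrl, 0.72 ± 0.421 in dKO against ctrl (interval from -0.10 to 1.54) and -0.62 ± 0.337 in cKO against dKO (interval from -1.28 to 0.04). The dKO value was smaller within its batch and turned with litter. It was 0.25 among the mice of batch 3 and -0.30 with litter in the fit. Exact 50-base sequence is shared with 76 other genes over 26.2% of the positions of its transcripts, 10 of them annotated as pseudogenes and 42 as protein-coding. The largest share, 25.2% of the positions, lies in *Gm10053*, which had 6 counts over all libraries. Reads that map to several places were left out by the authors, so the level may be underestimated.

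*Casp6* (chr3:129901425-129914103, plus strand), a caspase cleaved downstream of the initiators, had the lowest average level per kilobase. It read 5.08, 6.75, 5.92 and 5.23 CPM in the cKO mice 5, 7, S2 and F3 and 4.97, 5.54, 3.62 and 5.05 CPM in the dKO mice T2, T8, F1 and F7. The ctrl mice ranged from 1.88 to 9.77 CPM, with a median of 5.38, and so enclosed both mutant groups. The ctrl counts were 1 to 18 per mouse. On the log2 scale, the fold change was 0.15 ± 0.333 in cKO against ctrl, -0.12 ± 0.444 in dKO against ctrl and 0.32 ± 0.302 in cKO against dKO. Within batch 1 the first was 0.45 and within batch 3 the second was 0.52, and neither passed the test.

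*Xiap* (chrX:42059679-42109656, plus strand), the direct caspase inhibitor, was among the most precisely measured members. It read 107.5, 104.3, 114.6 and 94.5 CPM in the cKO mice 5, 7, S2 and F3 and 102.8, 103.5, 98.4 and 86.7 CPM in the dKO mice T2, T8, F1 and F7. In ctrl it ran from 92.8 to 149.4 CPM with a median of 95.6. Ctrl mouse T3 stood alone at the top, and the other 6 ctrl mice reached at most 112.9 CPM, while dKO mouse F7 alone lay below the ctrl range. In cKO against ctrl the log2 fold change was -0.0054 ± 0.127, or 0.996-fold with an interval from 0.838 to 1.18. It was -0.11 ± 0.14 in dKO against ctrl and 0.14 ± 0.138 in cKO against dKO.

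*Diablo* (chr5:123509765-123524176, minus strand), whose product relieves the block by XIAP, did not separate the groups either. The cKO mice 5, 7, S2 and F3 read 21.7, 25.8, 24.7 and 20.0 CPM, and the dKO mice T2, T8, F1 and F7 read 29.8, 24.9, 28.7 and 21.1 CPM. The ctrl mice ranged from 16.3 to 28.9 CPM with a median of 24.5. The groups overlapped throughout, and only dKO mouse T2 lay outside the ctrl range. Fold changes on the log2 scale were -0.06 ± 0.174 in cKO against ctrl (interval from -0.40 to 0.28), 0.09 ± 0.205 in dKO against ctrl and -0.12 ± 0.188 in cKO against dKO. The gene shares 1326 exon bases with *B3gnt4* on the opposite strand, which had 0 counts in all libraries. It shares 1193 with *Gm49027* on the same strand, which is not among the genes listed in the libraries. In all, 37.3% of its 50-base positions also lie in transcripts of other annotated genes. Whether the counting used strand is not stated in the sources used here. Where reads over shared bases were left uncounted, the level would be underestimated.

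*Parp1* (chr1:180568924-180601254, plus strand), a DNA-break sensor and a classical substrate of executioner caspases, had the highest level per kilobase and the narrowest interval in both comparisons with ctrl. It read 98.3, 117.8, 129.0 and 120.7 CPM in the cKO mice 5, 7, S2 and F3 and 159.1, 123.8, 120.7 and 114.5 CPM in the dKO mice T2, T8, F1 and F7. In ctrl it ran from 97.8 to 128.4 CPM with a median of 114.2. The dKO mouse T2, with 96 counts of the gene, lay above all other mice. The log2 fold change was -0.0048 ± 0.122 in cKO against ctrl, or 0.997-fold with an interval from 0.844 to 1.18. It was 0.13 ± 0.131 in dKO against ctrl and -0.10 ± 0.148 in cKO against dKO.

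**Figure D2:**
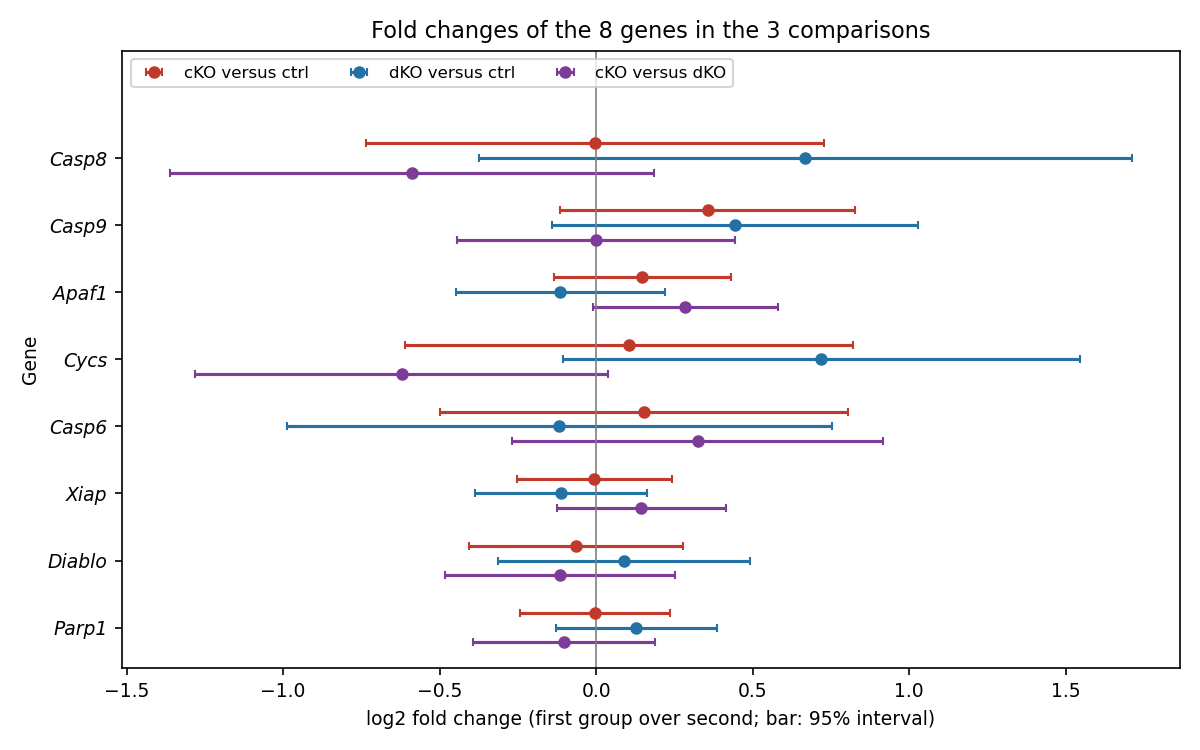
Log2 fold change (horizontal axis) of each of the 8 genes (vertical axis) in cKO against ctrl (red), dKO against ctrl (blue) and cKO against dKO (purple), from edgeR, with bars for the 95% interval. All 24 intervals include 0, and they are widest for *Casp8*, *Cycs* and *Casp6*, the genes with the fewest counts.

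The precision therefore split the members into groups. For *Apaf1*, *Xiap*, *Diablo* and *Parp1* the interval of cKO against ctrl left changes above 1.35-fold outside in either direction, the highest bound being 1.347-fold for *Apaf1* and the lowest 0.755-fold for *Diablo*. For *Casp6*, *Casp8*, *Casp9* and *Cycs* the upper bounds were 1.75, 1.66, 1.78 and 1.77-fold, so the intervals leave room for larger rises. The intervals are approximate, since they treat the fitted dispersion as known. They belong to the fits without covariates. With litter in the fit, the cKO against ctrl value of *Apaf1* was 0.29 (likelihood ratio test, unadjusted p 0.046). Within only the litters that held both groups it was 0.32 (unadjusted p 0.026). Neither passed the FDR, and the bound of 1.347-fold does not cover these fits. Across all 8 members, the median log2 fold change was 0.05 in cKO against ctrl, 0.11 in dKO against ctrl and -0.05 in cKO against dKO. For the 7 members that passed the expression filter the medians were 0.10, 0.09 and 0.00. The median over all 11308 filtered genes was 0.04, 0.02 and 0.05.

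Batch and litter were not balanced between the groups. All dKO mice were in batch 3, with 3 of the ctrl mice and 1 cKO mouse, and 3 of the cKO mice were in batch 1, with 3 ctrl mice. Within 1 batch or with litter in the fit, no member passed an FDR of 0.05 in any comparison. The values of *Diablo* and *Parp1* moved least in cKO against ctrl. *Casp6* in dKO against ctrl changed sign in both fits, from -0.12 to 0.52 and 0.74. The part of batch, litter and genotype in such shifts was not tested.

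**Figure D3:**
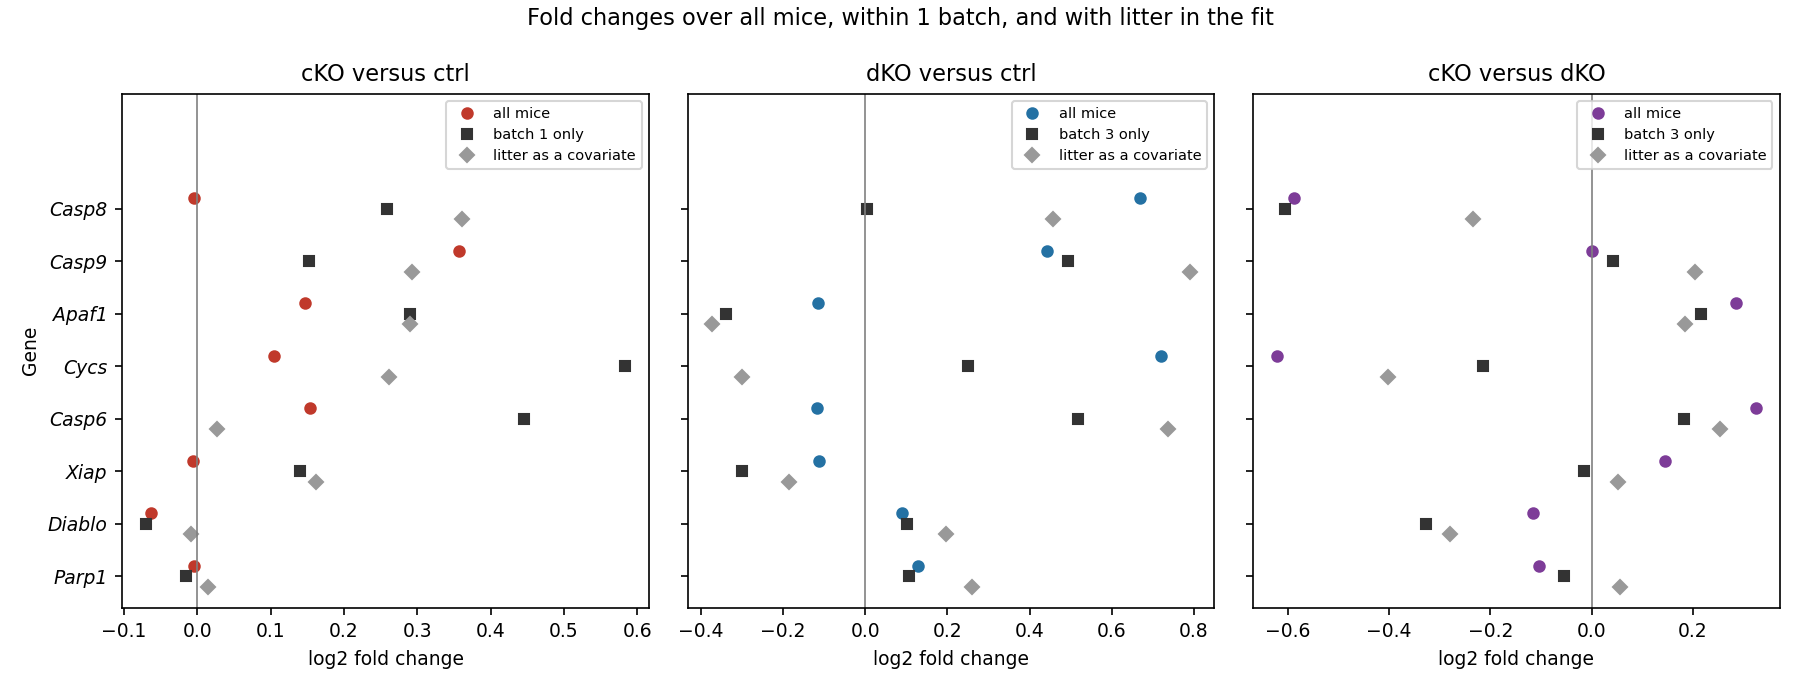
Log2 fold change (horizontal axes) of the 8 genes (vertical axis) over all mice (coloured circles), within 1 batch (black squares) and with litter as a covariate (grey diamonds), with 1 panel per comparison. *Cycs* in dKO against ctrl runs from 0.72 over all mice to -0.30 with litter in the fit, while *Diablo* stays between 0.09 and 0.20.

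The wider pathway was covered by a list of 40 further genes, namely other caspases, the death receptor complex, the PIDDosome, inhibitor of apoptosis proteins and their antagonists, apoptosome modulators, other mitochondrial factors and downstream targets. Of these, 38 had a count in at least 1 mouse and 24 passed the expression filter. As for the members, 0 of 40 passed an FDR of 0.05 in each of the 3 comparisons. At an unadjusted p below 0.05 there were 2 of 40 in cKO against ctrl and 2 of 40 in dKO against ctrl. In cKO against dKO there were 0 of 40. The shares over all genes were 4.7%, 3.32% and 4.16%, as given above for the members. Of the 24 filtered genes the counts were 0, 2 and 0, beside 10.5%, 5.77% and 4.11% of the 11308 filtered genes. The median log2 fold changes over the 40 genes were 0.01, -0.0015 and 0.02. The inflammatory caspase genes *Casp1*, *Casp4* and *Casp12* and the skin caspase gene *Casp14* averaged under 1 CPM in every group.

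In cKO against ctrl, the smallest p-values of the wider list fell on genes with few counts. *Naip5*, an inhibitor of apoptosis protein gene known as a sensor of bacterial flagellin, had 10 counts over the 4 cKO mice and 0 over the 7 ctrl mice. The summed cKO level was 0.430 CPM, or 1.35 times a floor of 3 counts over the ctrl group (FDR 0.579). The counting error of the 10 cKO counts is not in that ratio, so a rise is not established. *Xkr8*, whose product exposes phosphatidylserine on dying cells after caspase cleavage, averaged 0.874 ± 0.709 CPM in cKO and 2.48 ± 1.79 CPM in ctrl (SD). Its fitted log2 fold change was -1.42 ± 0.596 (FDR 0.693). *Birc3*, encoding an inhibitor of apoptosis protein and ubiquitin ligase, had 13 counts over cKO and 12 over ctrl, with a log2 fold change of -1.08 ± 0.644.

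In dKO against ctrl, *Sept4*, a gene with an isoform that antagonises XIAP, averaged 4.91 ± 2.17 CPM against 2.58 ± 1.67 CPM (log2 fold change 1.03 ± 0.45; FDR 1). The isoform cannot be told from the others in gene counts. *Ptma*, encoding prothymosin alpha, an inhibitor of apoptosome formation, averaged 158.6 ± 52.6 CPM against 115.5 ± 39.5 CPM (0.44 ± 0.204; FDR 1). For both genes the higher dKO mice were F1 and F7 of litter 4, which held no ctrl mouse. *Ptma* read 224.6 and 176.6 CPM in these, and 109.4 and 123.8 CPM in T2 and T8. *Sept4* read 6.94 and 6.60 CPM, and 3.32 and 2.77 CPM. The part of litter in these values was not tested. *Xaf1*, encoding another XIAP antagonist, had 5 counts over dKO and 1 over ctrl, a ratio of 4.50 with a counting interval from 0.504 to 212.9. In cKO against dKO, the smallest p-value belonged to *Casp2*, the caspase that the PIDDosome activates. It averaged 44.5 ± 5.01 CPM in cKO and 35.8 ± 2.29 CPM in dKO, and every cKO mouse exceeded every dKO mouse (39.3 against 38.6 CPM at the closest), as in 3.86% of the filtered genes in either direction. With plain CPM the order turned, at 37.6 for cKO mouse 7 and 38.0 for dKO mouse T2. With RLE scaling it held narrowly, at 37.99 for cKO mouse 7 and 37.93 for dKO mouse F1. The log2 fold change was 0.32 ± 0.165 (FDR 1). *Xkr8* (-0.89 ± 0.655) and *Birc2*, encoding a ubiquitin ligase of the same inhibitor family (0.22 ± 0.16), followed.

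**Figure D4:**
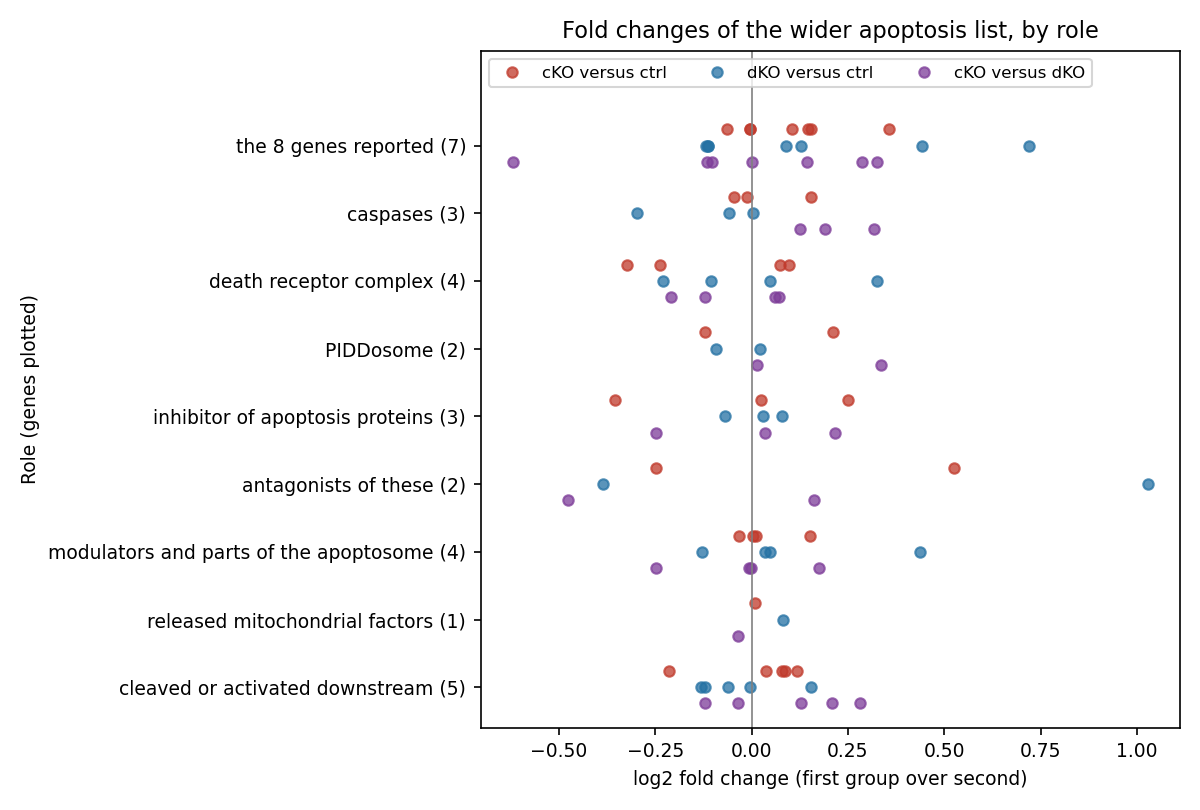
Log2 fold change (horizontal axis) of the genes that passed the expression filter, 7 of the 8 genes and 24 of the 40 further pathway genes, grouped by role (vertical axis, with the number plotted), 1 point per gene and comparison. The points of each role lie on both sides of 0 in most rows, with *Sept4* the highest at 1.03 in dKO against ctrl.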

How the data were processed

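RNA of E15.5 cortex was depleted of rRNA and made into Click-seq libraries with unique molecular identifiers. Per the submitters' processing notes and the study's methods, the authors trimmed reads with cutadapt 1.13, aligned them to GRCm38/mm10 with STAR 2.5.2a, collapsed PCR copies with UMI-tools 0.5.3 and counted them with HTSeq 0.6.1p1 in intersection-nonempty mode. The deposited values are whole-number counts per gene, not normalized by the authors, and the release of their annotation is not given in the sources used here. The 5 summary lines at the end of each file were left out. Symbols, coordinates and exon lengths came from GENCODE vM21 (GRCm38).

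The 2 libraries of cKO mouse S2 agreed almost within sampling noise (chi-square per degree of freedom 1.14, other cKO pairs 3.56 to 27.4) and were summed. Each comparison was fitted on its 2 groups with edgeR 4.0.16 (R 4.3.3): TMM scaling over all 51912 genes, likelihood ratio test without covariates, Benjamini-Hochberg FDR below 0.05. Standard errors are Wald errors and 95% intervals are 1.96 times these. CPM was TMM-scaled over the 15 mice. The expression filter is filterByExpr with a minimum count of 10. The steps were tested on simulated data. The alternatives, DESeq2 1.42.0 among them, are given at the end.

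The members and the gene lists were chosen with earlier results of these data known. All 8 members are reported with their values. Genes of the wider list are named where they passed the FDR, or were among the 3 smallest p-values of a comparison. *Casp1*, *Casp4*, *Casp12* and *Casp14* were named outside this rule, after their values were seen. Counting error limits the genes with few counts most, and intervals of the sparse genes cover it alone.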

Additional observations from a re-analysis of the deposited data

Results flagged for a closer look

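In 1 of the 24 gene and group combinations of the 8 genes, 1 mouse stood apart from the rest of its group by Dixon's criterion, which chance alone meets in about 1 of 20 groups. *Xiap* was at 149.4 CPM in ctrl mouse T3, and the other 6 ctrl mice lay between 92.8 and 112.9 CPM. The gap to the nearest mouse was 0.645 of the whole range. Mouse T3 had 64 counts of the gene.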

How the results depend on the processing

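The count of members past the FDR was 0 under each of the 24, 22 and 20 alternatives tried for cKO against ctrl, dKO against ctrl and cKO against dKO, and the count among the 40 further pathway genes was 0 as well. Not every gene had an FDR in each of these. DESeq2 gave one to 8, 2 and 8 of the 8 members and to 28, 5 and 35 of the 40 genes, and the expression filter left 6, 5 and 8 members and 22, 20 and 25 genes, so a call was not possible for the rest. The alternatives were the quasi-likelihood test, DESeq2, RLE scaling, the expression filter, all groups in 1 fit, batch, litter or sex as a covariate, wild-type ctrl only, 1 batch only, each library of mouse S2 alone, each mouse left out in turn and, chosen after the data were seen, only litters that held both groups. Of 523 fits of a member under an alternative, 17 had an unadjusted p below 0.05, with the smallest FDR at 0.573, in 39 the log2 fold change moved by more than its standard error, and in 62 its sign differed, mostly for *Casp8*, *Xiap* and *Parp1* in cKO against ctrl and *Casp9* in cKO against dKO, whose reported values were near 0. Over all genes, the number of calls was less stable. It ran from 13 (batch 1 only) to 373 (without cKO mouse S2) in cKO against ctrl, from 3 (litters with both groups) to 113 (quasi-likelihood test) in dKO against ctrl and from 1 (batch 3 only) to 184 (quasi-likelihood test) in cKO against dKO, and the cause was not tested. Pairing by mouse was not possible because each mouse belonged to 1 group, and litter served as the block instead. Litters 1 and 2 held ctrl and cKO mice, litter 3 ctrl and dKO mice, and litter 4 cKO and dKO mice. Under the filter *Casp8* and *Cycs* could not be fitted in cKO against ctrl, nor *Casp8*, *Cycs* and *Casp6* in dKO against ctrl.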
